A study of Mus musculus with 16 samples.

Results

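The Hox cluster genes are the homeobox genes that lie side by side in the HoxA, HoxB, HoxC and HoxD clusters. They were taken here as every row of the deposited expression table whose symbol is Hoxa, Hoxb, Hoxc or Hoxd followed by a number. This gave 40 rows of 54532, with 39 symbols, because the symbol Hoxd4 stands on rows of 2 gene identifiers. There were 11 rows of the Hoxa cluster, 10 of Hoxb, 9 of Hoxc and 10 of Hoxd. RNA was sequenced from 16 end-stage subcutaneous tumours of B16F10 cells, a pigmented mouse melanoma line, grown in C57BL/6J mice of both sexes aged 8 weeks. The tumours came either from wild-type B16F10 cells (WT) or from Pros1-deficient B16F10 cells (BdP, whose genotype another label gives as Pros1 knockdown). From day 8 after implantation the hosts were injected intraperitoneally once a day for 3 days, in 2 rounds, with PBS or with the DNA-crosslinking platinum drug cisplatin at 5 mg/kg. Each of the 4 groups, WT PBS, WT cisplatin, BdP PBS and BdP cisplatin, held 4 libraries. The labels do not say how Pros1 was lowered or whether BdP is 1 clone. All BdP tumours came from the one cell line and all WT tumours from the other, so low Pros1 and any other difference between the lines cannot be told apart. The labels do not tie each library to its own mouse, and the p-values below measure the spread between these libraries only.

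Hox genes encode transcription factors that give cells a position along the body axis. Within a cluster, genes at the 3′ end (low numbers) are used in anterior parts of the embryo and genes at the 5′ end (high numbers) in posterior parts and in the distal limb, and genes with the same number in different clusters are paralogues. Polycomb complexes keep unused Hox genes silent, trithorax complexes keep used ones active, and Hox proteins bind DNA together with TALE cofactors of the Pbx, Meis and Pknox families. Adult cells and tumours often keep a stable pattern of Hox genes that are on and off.

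Reads assigned to genes ran from 10051843 to 27055771 per library, with a median of 21119708.5. The mitochondrial share was 76.9% in WT PBS 1, 12.2% in WT cisplatin 3 and 21.7% in WT cisplatin 4, and it was 2.03% to 5.06% in the other 13 libraries. Pros1, the gene the BdP label names, measured 4.79 to 11.5 FPKM in the 8 WT libraries and 1.23 to 2.52 FPKM in the 8 BdP libraries, so each library matched its label. FPKM is the number of fragments per kilobase of gene length, scaled between libraries, and can be compared between genes. The scaling here was by median-of-ratios size factors and not by total reads. In WT PBS 1 a single Hoxd13 read stood for 0.206 FPKM, against 0.0126 to 0.0343 FPKM in the other libraries. The 7 melanoma markers (Mlana, Pmel, Tyr, Tyrp1, Dct, Mitf and Sox10) were all expressed, with a summed level of 4648 to 8596 FPKM. The 12 fibroblast and matrix markers summed to 4.28 to 53.1 FPKM, with 6 past the filter and 7 averaging under 1 FPKM. The 5 keratinocyte markers, Krt5, Krt14, Krt1, Krt10 and Krt15, summed to between 0 and 2.34 FPKM.

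The 39 Hox rows described here held 24366 reads over the 16 libraries. Their summed level was 19.3 to 38.2 FPKM per library, with a median of 26.1. Of this sum Hoxa gave 66.1%, Hoxb 20.0% and Hoxd 13.04%. In the Hoxa cluster the sum over positions 9 to 13 averaged 10.3 FPKM and that over positions 5 to 8 averaged 6.15 FPKM. In the Hoxb cluster the same stretches averaged 1.81 and 3.20 FPKM, and positions 1 to 4 averaged 0.372 FPKM. The Hoxc cluster was near silent, with 116 reads in all and no row at a mean of 0.1 FPKM. It summed to 1.84 FPKM in WT PBS 1 and to at most 0.517 FPKM in the other 15 libraries. Over all clusters 21 of 39 rows averaged under 0.1 FPKM.

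**Figure D1:**
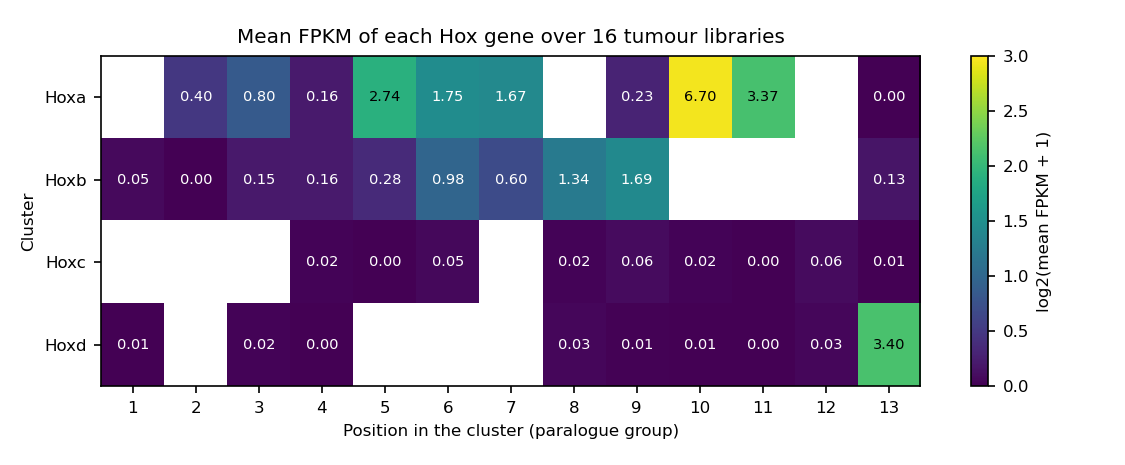
Mean FPKM of each Hox gene over the 16 libraries, with clusters in rows and positions 1 to 13 in columns; colour is log2(mean FPKM + 1), white squares have no value here, and the Hoxd4 square sums both of its rows. Hoxa10 at 6.70, Hoxd13 at 3.40 and Hoxa11 at 3.37 FPKM stand highest, the Hoxc row is near 0 throughout, and Hoxd13 is the one Hoxd gene above 0.1 FPKM. The Hoxd13 mean joins 5.73 FPKM in WT and 1.08 FPKM in BdP libraries.

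Hoxa10, which patterns the posterior trunk, the proximal limb and the uterus, was the most abundant Hox transcript with 6.70 FPKM on average. It ranged from 4.38 to 9.29 FPKM and was at 6.76 ± 2.18 in WT PBS, 7.73 ± 1.14 in WT cisplatin, 5.97 ± 0.731 in BdP PBS and 6.35 ± 1.41 in BdP cisplatin (SD, n = 4). It was above its successor Hoxd13 in 15 of 16 libraries, by 1.07 on the log2(FPKM + 1) scale with an SD of 0.98 between libraries. Both figures pool WT and BdP libraries, between which the gap differed. Hoxd13 averaged 5.52 FPKM in WT PBS and 5.94 in WT cisplatin, against 1.09 in BdP PBS and 1.06 in BdP cisplatin. In WT PBS 1 the order was reversed, with Hoxa10 at 4.38 and Hoxd13 at 9.69 FPKM. Below Hoxa10 came Hoxd13 (3.40 FPKM), Hoxa11 (3.37), Hoxa5 (2.74), Hoxa6 (1.75), Hoxb9 (1.69), Hoxa7 (1.67), Hoxb8 (1.34), Hoxb6 (0.976) and Hoxa3 (0.798). No neighbours in this order after Hoxa10 and Hoxd13 differed beyond the spread of their difference between libraries. The place of Hoxd13 holds for the mean over all libraries only, which joins 5.73 FPKM in WT and 1.08 FPKM in BdP. In BdP it stood below Hoxa11 (3.72 FPKM), Hoxa5 (2.07), Hoxa6 (1.72), Hoxa7 (1.58), Hoxb8 (1.26) and Hoxb9 (1.23) as well. Of the paralogue groups, group 10 was 99.6% Hoxa10, group 11 was 99.9% Hoxa11 and group 13 was 96.3% Hoxd13 by summed mean level.

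These 10 genes passed the filter of at least 1 FPKM in at least 4 libraries, and the tests below cover them among 12319 genes. Hoxa10, Hoxa7 and Hoxb8 varied least over all 16 libraries, with a coefficient of variation of 22.0%, 22.5% and 27.6%. Hoxd13 varied most, at 81.4%, from 0.306 to 9.69 FPKM, a figure that includes the difference between WT and BdP libraries. Within the groups it was at 5.52 ± 2.81 FPKM in WT PBS and 5.94 ± 0.762 in WT cisplatin. In BdP it was at 1.09 ± 0.834 FPKM under PBS and 1.06 ± 0.424 under cisplatin. Hoxa6, Hoxa7 and Hoxb8, which pattern the thoracic region, kept similar group means, but this did not hold for every gene of that region. The group means of Hoxb9, also a thoracic gene, ran from 1.01 FPKM in BdP cisplatin to 2.66 FPKM in WT cisplatin. Those of Hoxb6 ran from 0.641 FPKM in BdP cisplatin to 1.41 FPKM in WT PBS. In the order WT PBS, WT cisplatin, BdP PBS and BdP cisplatin, Hoxa7 was at 1.69 ± 0.502, 1.82 ± 0.385, 1.65 ± 0.268 and 1.51 ± 0.412 FPKM. In the same order Hoxb8 was at 1.38 ± 0.484, 1.44 ± 0.509, 1.17 ± 0.256 and 1.36 ± 0.250 FPKM. Hoxa6 was at 1.66 ± 1.53, 1.87 ± 0.699, 1.82 ± 1.07 and 1.63 ± 0.551 FPKM. It varied by 53.3%, with no read in WT PBS 1, where 2322202 reads were not mitochondrial, and 3.64 FPKM in WT PBS 4. Reads of Hoxa11 cannot be told apart from those of its antisense transcript Hoxa11os over 35.0% of its exonic bases, since the counting by strand is not given in the sources used here. Hoxa7 shared 20.4% of its bases with the antisense gene Hoxaas3. Hoxa3 shared 8.01% of its bases with genes on its own strand and 25.4% with genes on the opposite strand, so its values carry the same limit. Hoxd13, Hoxa10, Hoxa5, Hoxa6, Hoxb6, Hoxb8 and Hoxb9 shared none with another annotated gene.

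Hoxd13 lies at the 5′ end of HoxD (ENSMUSG00000001819, GRCm38, chromosome 2 from 74668310 to 74671599, plus strand, 2483 exonic bases). It encodes the factor that shapes digits and the external genitalia. In these tumours it was on while the 9 other Hoxd rows were close to 0. Those 9 rows had 122 reads in all 16 libraries, against 2510 of Hoxd13, and none exceeded 0.237 FPKM in any library (Hoxd12 in BdP PBS 4). Hoxd3 shared 62.3% of its exonic bases with other genes on its own strand, and the Hoxd4 row without reads shared 52.3%. The other Hoxd4 row was not in the annotation used for overlaps. The low values of these rows carry that limit. Hoxd13 made up 96.0% to 100% of the Hoxd sum in WT PBS, at least 96.1% in WT cisplatin, 62.7% to 100% in BdP PBS and 77.0% to 100% in BdP cisplatin. The RefSeq promoters of Hoxd13 and of Hoxd12, its next Hox neighbour, are shown because one gene was expressed and the other was close to 0. They run from 250 bases before to 50 bases after the RefSeq start (GRCm38.p6, plus strand, chr2:74667975-74668274 and chr2:74674763-74675062), in lower case with each CG dinucleotide in capitals.
Hoxd13: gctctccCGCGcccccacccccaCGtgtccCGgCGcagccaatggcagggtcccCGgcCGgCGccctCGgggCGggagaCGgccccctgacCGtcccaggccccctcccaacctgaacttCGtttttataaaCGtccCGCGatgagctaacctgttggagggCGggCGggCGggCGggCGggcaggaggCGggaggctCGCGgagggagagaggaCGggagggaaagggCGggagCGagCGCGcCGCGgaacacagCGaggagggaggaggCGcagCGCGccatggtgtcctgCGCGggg
Hoxd12: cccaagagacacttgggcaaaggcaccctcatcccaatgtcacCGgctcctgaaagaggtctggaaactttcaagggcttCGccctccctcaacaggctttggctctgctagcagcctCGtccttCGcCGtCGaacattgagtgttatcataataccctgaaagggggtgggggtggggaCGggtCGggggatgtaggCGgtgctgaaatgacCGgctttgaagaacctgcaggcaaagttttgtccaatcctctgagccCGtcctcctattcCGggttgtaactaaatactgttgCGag
The Hoxd13 window held 37 CG dinucleotides and the Hoxd12 window 13. At least 37 were held by 5.58% of the 32851 promoters that RefSeq lists, and the median was 7. The table matched 22 Hox symbols with 24 promoters, whose median was 14.5 CG, from 4 to 45 (Hoxa13, which had no read in any library). The letters TATAAA, read on either strand, were in 4 of the 24 Hox windows, that of Hoxd13 among them, and in 13.6% of all promoters. In the Hoxd13 window they lay on the strand of the gene, 124 bases before the RefSeq start. A window of Hoxa10 and those of Hoxb8 and Hoxd4 held them only on the opposite strand. The Hoxd12 window did not hold them. Whether these letters have a part in transcription was not tested.

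The comparison of BdP with WT tumours asks how Hox transcription differed where Pros1 was low. Hoxd13 was lower in BdP tumours under both treatments, and none of the other 9 tested Hox genes passed. Among PBS-treated tumours the WT libraries held 9.69, 4.23, 4.54 and 3.61 FPKM of Hoxd13 (mean 5.52, SD 2.81, n = 4). The BdP libraries held 1.56, 2.02, 0.306 and 0.469 FPKM (1.09 ± 0.834). Under cisplatin it measured 5.67, 5.06, 6.18 and 6.86 FPKM in WT (5.94 ± 0.762) and 1.25, 0.454, 1.43 and 1.12 FPKM in BdP (1.06 ± 0.424). All 8 BdP libraries were below all 8 WT libraries, and the highest BdP value, 2.02, was under the lowest WT value, 3.61. Within single treatments, 4.32% of the 12319 tested genes under PBS and 6.6% under cisplatin had all BdP libraries below all WT libraries. That share was not computed for 8 against 8 libraries. The WT mean was 5.07 times the BdP mean under PBS and 5.59 times under cisplatin.

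On the log2(FPKM + 1) scale, which understates changes of low genes, Hoxd13 fell by 1.65 ± 0.29 under PBS (SE, 95% interval -2.27 to -1.03, limma adjusted p = 0.0171). Under cisplatin it fell by 1.77 ± 0.29 (-2.39 to -1.15, adjusted p = 0.00693). Over both treatments the change was -1.71 ± 0.21 (adjusted p = 0.000284). By an exact permutation test of FPKM, two-sided, p was 0.0286 under each treatment, unadjusted and the smallest that 4 against 4 libraries allow. Every gene whose groups do not overlap gets this p, which held for 7.68% of tested genes under PBS and 13% under cisplatin. The test was run on Hoxd13 because it was called, so it adds no separate support. The 2 genotype differences of Hoxd13 differed by -0.12 ± 0.41 (SE, interaction, limma adjusted p = 0.978). As background, 0.99% of the 12319 genes were called under PBS (0.576% lower), 1.07% under cisplatin (0.722% lower) and 5.86% over both treatments (3.09% lower). Of the 10 Hox genes, 1 was called in each.

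The 3 libraries rich in mitochondrial reads were all WT, and Hoxd13 in WT PBS 1 rested on 47 reads. Without these 3 libraries the WT values were 4.23, 4.54 and 3.61 FPKM under PBS and 5.67 and 5.06 FPKM under cisplatin, all above the BdP values. The change was then -1.38 (adjusted p = 0.0640) under PBS and -1.65 (adjusted p = 0.0544) under cisplatin, neither past the threshold, and -1.52 (adjusted p = 0.00414) over both, which passed. The call under PBS was also lost without BdP PBS 4 (-1.51, adjusted p = 0.0718). It was lost as well with FPKM rescaled to the nuclear genes alone (-1.34, adjusted p = 0.0759) and with only the PBS groups in the fit, where the fold stayed at -1.65 (adjusted p = 0.261). Both single-treatment calls were lost in TPM, at -1.28 under PBS (adjusted p = 0.327) and -2.09 under cisplatin (adjusted p = 0.165).

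In a bulk sample, fewer cells of a type and less RNA per cell cannot be told apart. The melanoma markers summed to 5403 to 6747 FPKM in the BdP libraries and 4648 to 8596 FPKM in the WT libraries, so the groups overlapped. The leukocyte markers Ptprc, Cd68, Csf1r, Itgam and Cd3e were all expressed, with sums of 15.01 to 192 FPKM in WT PBS and 77.1 to 224 FPKM in BdP PBS. Under cisplatin those sums were 18.8 to 93.3 FPKM in WT and 38.9 to 162 FPKM in BdP. Between BdP and WT these 5 had a median log2 difference of 0.89 under PBS, 0.79 under cisplatin and 0.72 over both treatments. All 5 were positive in each, and none was called. Of 5 markers of blood progenitors, which summed to 1.84 to 2.82 FPKM in WT and 3.24 to 8.20 FPKM in BdP libraries, 4 averaged under 1 FPKM. The other, Kit, a receptor that melanocytes and mast cells also use, rose in BdP under PBS (4.74 ± 2.37 FPKM against 1.40 ± 0.481 in WT, limma adjusted p = 0.0338). Its log2 difference was 1.18 under PBS and 1.09 over both treatments, called in each, where 0.99% and 5.86% of all tested genes were called. Under cisplatin it was 1.00 and not called. The 5 erythroid markers, Hba-a1, Hba-a2, Hbb-bs, Hbb-bt and Alas2, summed to 8198 to 207159 FPKM in WT PBS and 13261 to 64221 FPKM in BdP PBS. Under cisplatin they summed to 54.8 to 9650 FPKM in WT and 21.4 to 79816 FPKM in BdP. Their median log2 difference between BdP and WT was -0.41 under PBS, -1.20 under cisplatin and -0.93 over both treatments, with 0 of 5 positive and none called. The fibroblast and matrix markers summed to 9.03 to 39.3 FPKM in WT PBS and 9.64 to 53.1 FPKM in BdP PBS. Under cisplatin they summed to 4.28 to 20.9 FPKM in WT and 16.4 to 32.5 FPKM in BdP. Over both treatments the 6 tested had a median log2 difference of -0.04, with 3 positive and none called. The 5 endothelial markers summed to 0.361 to 2.41 FPKM in WT and 0.677 to 6.00 FPKM in BdP libraries. The part of these cell types in the Hoxd13 result was not tested.

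**Figure D2:**
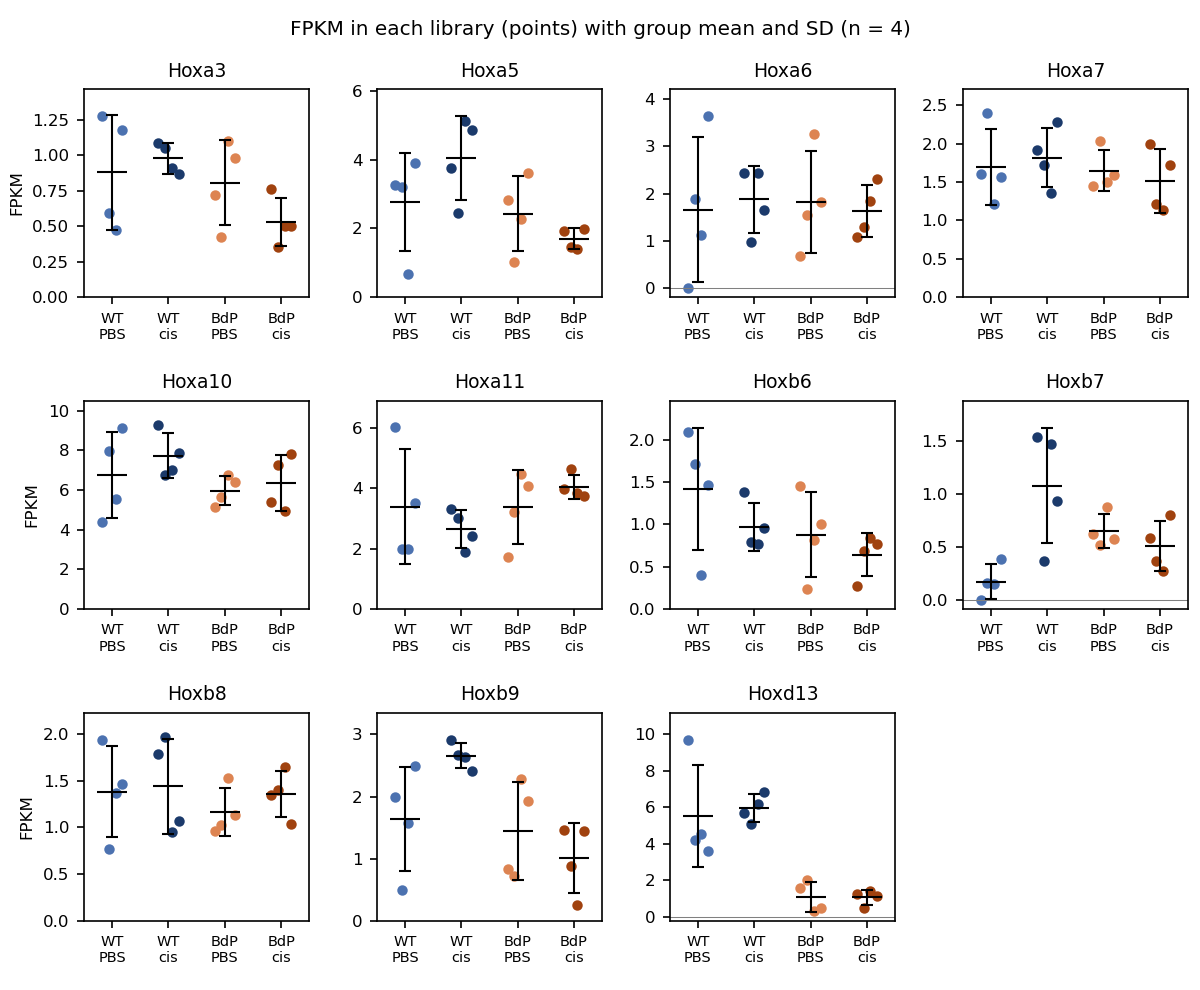
FPKM of the 10 tested Hox genes and Hoxb7 in each of the 16 libraries; points are libraries, bars are group means with SD (n = 4), and cis stands for cisplatin. For Hoxd13 the 8 BdP libraries lie between 0.306 and 2.02 FPKM and the 8 WT libraries between 3.61 and 9.69 FPKM, while Hoxa10 and Hoxa7 overlap between the groups.

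Around Hoxd13, 52 other genes overlapped a window of 1000 kb on either side, and 7 of them were tested. None of the 7 was called in either treatment or over both. Their changes ran from -0.26 to 0.47 under PBS and from -0.12 to 0.29 under cisplatin. Lnpk, which encodes lunapark, an endoplasmic reticulum protein, lies on the 5′ side of the cluster and under PBS averaged 2.96 FPKM in the WT group against 2.80 in the BdP group (-0.06 ± 0.11, limma adjusted p = 0.78). Mtx2, a mitochondrial import gene on the 3′ side, averaged 12.9 and 12.5 FPKM (-0.05 ± 0.11, limma adjusted p = 0.826). Hoxd3os1, an antisense transcript within HoxD, averaged 0.744 ± 0.226 and 0.982 ± 0.173 FPKM in WT and 0.513 ± 0.116 and 0.594 ± 0.212 FPKM in BdP under PBS and cisplatin, and was below the filter.

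**Figure D3:**
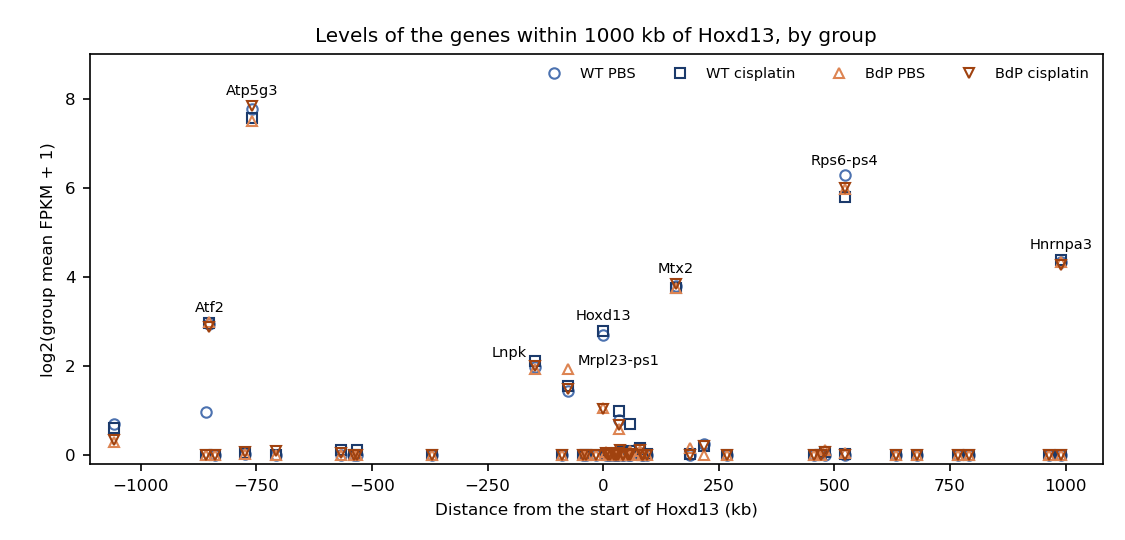
Group mean levels of the 53 genes in the window around Hoxd13, as log2(mean FPKM + 1) against the distance of each gene's start from that of Hoxd13 in kb; names mark the tested genes. The WT symbols of Hoxd13 stand above its BdP symbols (5.52 and 5.94 against 1.09 and 1.06 FPKM), while the 4 groups nearly coincide for Lnpk and Mtx2.

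Under PBS, the other 9 tested Hox genes ran from -0.35 (Hoxb6) to 0.21 (Hoxa6) between BdP and WT. The smallest adjusted p among them was 0.442. Hoxb6 measured 2.09, 1.71, 0.398 and 1.46 FPKM in WT and 1.45, 0.236, 0.815 and 1.01 FPKM in BdP (-0.35 ± 0.25). The libraries of the groups interleaved. Hoxb8 averaged 1.38 ± 0.484 FPKM in WT and 1.17 ± 0.256 FPKM in BdP (-0.12 ± 0.18, adjusted p = 0.713), and its sign turned with the scaling. Hoxa10 came next by p (-0.12 ± 0.19). For 8 of the 9 the 95% interval lay within 1 log2 unit of 0, the exception being Hoxa6 with an upper bound of 1.04. Hoxd13 was the 1 Hox gene of 10 whose groups did not overlap, where 7.68% of all tested genes did not (4.32% with BdP lower).

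Under cisplatin none of the other 9 genes passed the test. Hoxb9, a thoracic patterning gene, measured 2.91, 2.66, 2.64 and 2.41 FPKM in WT (2.66 ± 0.203) and 1.46, 0.877, 0.257 and 1.44 FPKM in BdP (1.01 ± 0.569). Its change was -0.91 ± 0.28 with a 95% interval from -1.52 to -0.31 and an adjusted p = 0.164. The 4 BdP libraries lay below the 4 WT libraries. Hoxa5, which is needed for lung and airway development, measured 3.76, 2.44, 5.14 and 4.85 FPKM in WT and 1.94, 1.46, 1.41 and 1.99 FPKM in BdP (-0.87 ± 0.32, adjusted p = 0.243). Hoxa11, a gene of the forearm, lower leg and uterus, was the one with a higher BdP mean, 4.05 ± 0.394 against 2.66 ± 0.637 FPKM (0.48 ± 0.26, adjusted p = 0.43). Hoxa3, a gene of the pharyngeal arches and thymus, measured 0.864 to 1.08 FPKM in WT and 0.354 to 0.761 FPKM in BdP (-0.37 ± 0.17, adjusted p = 0.359).

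Of the 10 genes 9 had a negative difference under cisplatin, with a median of -0.26, where the median of all tested genes was 0.01. The groups did not overlap in 5 of the 10, Hoxd13, Hoxb9, Hoxa5 and Hoxa3 with BdP lower and Hoxa11 with BdP higher. Over all tested genes this held for 13%, and for 6.6% with BdP lower. The shared sign under PBS depended on the scaling and on single libraries. There 8 of 10 were negative with a median of -0.09 in FPKM, and 11 of 13 were positive in TPM with a median of 0.47, where the median of all genes was itself 0.76. In FPKM, 6 of 10 were positive without WT PBS 4 (median 0.03), and 5 of 10 without BdP PBS 2 (median -0.02). Under cisplatin 11 of 13 were negative in TPM, with a median of -0.21 beside 0.14 for all genes. Over both treatments Hoxb9 was at -0.51 ± 0.20 (adjusted p = 0.133) and Hoxa5 at -0.48 ± 0.23 (adjusted p = 0.195), and neither passed.

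**Figure D4:**
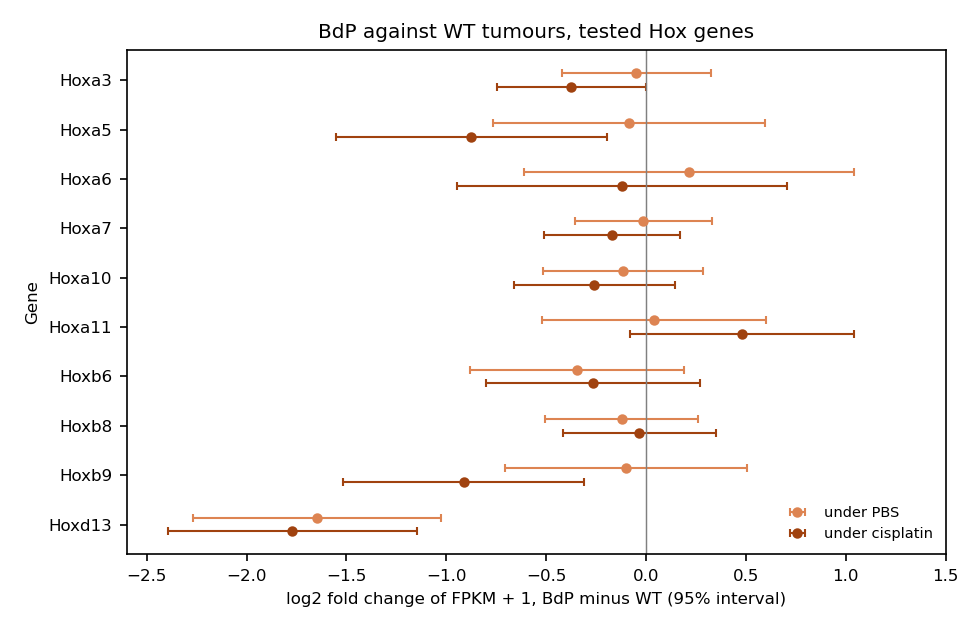
Log2 fold change of FPKM + 1 between BdP and WT tumours for the 10 tested Hox genes, with 95% intervals, under PBS and under cisplatin. Hoxd13 lies at -1.65 and -1.77, and Hoxb9 and Hoxa5 lie farther below 0 under cisplatin (-0.91 and -0.87) than under PBS (-0.10 and -0.08).

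The comparison of cisplatin with PBS asks whether the drug left a change in Hox transcription. No Hox gene was called in WT tumours, in BdP tumours or over both genotypes, either by limma on FPKM or by limma-voom on the recovered reads, and none of the 10 had an unadjusted p below 0.05. The background was 0.00812% of genes called in WT, 0% in BdP, with 542 genes at an unadjusted p below 0.05 and 0 called by limma-voom, and 0% over both genotypes, with 781 and 0. In WT tumours Hoxb9 had the smallest p. It measured 1.99, 0.498, 1.58 and 2.49 FPKM under PBS (1.64 ± 0.845) and 2.66 ± 0.203 FPKM under cisplatin (0.54 ± 0.28, adjusted p = 0.648). Hoxa5 followed with 2.77 ± 1.44 and 4.05 ± 1.23 FPKM (0.50 ± 0.32, adjusted p = 0.678), then Hoxa10 (0.21 ± 0.19, adjusted p = 0.757). The libraries of both treatments overlapped for all 10 genes in WT and in BdP. The 5 erythroid markers had a median log2 difference of -5.06 between cisplatin and PBS over both genotypes, with 0 of 5 positive and none called, and their part in these values was not tested.

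In BdP tumours the 3 smallest p values were those of Hoxa3 (-0.23 ± 0.17), Hoxb9 (-0.28 ± 0.28) and Hoxa11 (0.25 ± 0.26), each with an adjusted p = 1. Hoxd13 did not pass in either genotype, with 0.17 ± 0.29 in WT (95% interval -0.45 to 0.79) and 0.05 ± 0.29 in BdP (-0.58 to 0.67). All 9 other genes had an interval within 1 log2 unit of 0 in BdP, and 6 of 9 did in WT. Over both genotypes the differences of the 9 ran from -0.20 (Hoxb6, 0.18 SE, adjusted p = 0.89) to 0.13 (Hoxa10, 0.13 SE, adjusted p = 0.914), and Hoxb9 was at 0.13 ± 0.20.

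The interaction asks whether the cisplatin response differed between the genotypes. None of the 10 tested Hox genes passed, and none of the 10 had an unadjusted p below 0.05. Over all genes 0% were called, with 691 at an unadjusted p below 0.05 and 1 called by limma-voom. Hoxb9 (-0.81 ± 0.40), Hoxa5 (-0.79 ± 0.45) and Hoxa3 (-0.33 ± 0.25) had the smallest p, with adjusted p = 0.835, 0.835 and 0.86. The larger differences of Hoxb9 and Hoxa5 between the lines under cisplatin were thus not shown to differ from those under PBS.

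**Figure D5:**
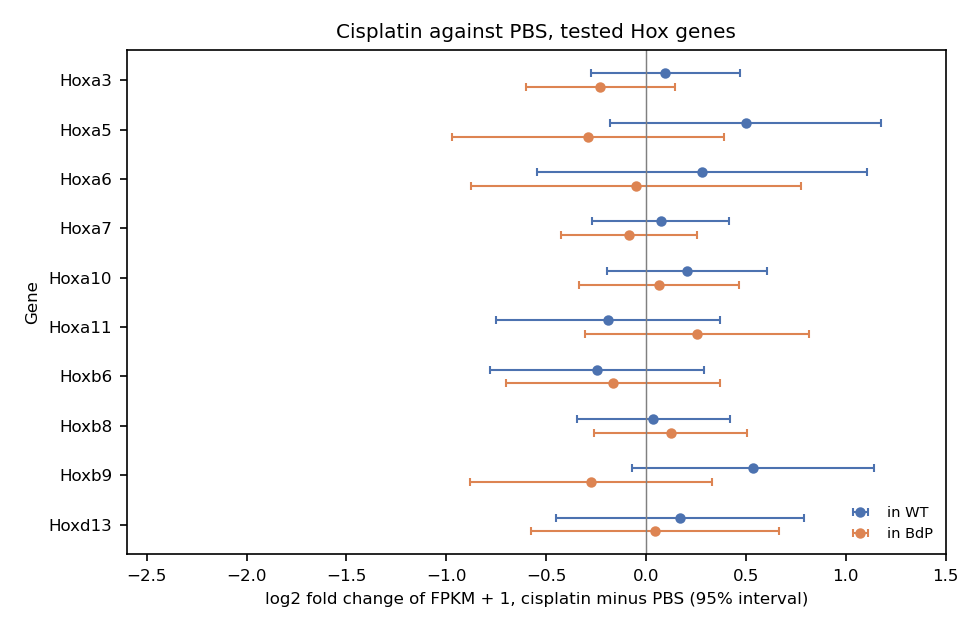
Log2 fold change of FPKM + 1 between cisplatin and PBS for the 10 tested Hox genes, with 95% intervals, in WT and in BdP tumours. All intervals span 0, from Hoxb9 at 0.54 in WT to Hoxa5 at -0.29 in BdP.

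Among the rows below the filter, Hoxb7 reached a mean of 1 FPKM in 1 group. It measured 0, 0.158, 0.152 and 0.392 FPKM in WT PBS (0.176 ± 0.162) and 1.54, 0.370, 1.47 and 0.938 FPKM in WT cisplatin (1.08 ± 0.544). In BdP it was at 0.648 ± 0.161 FPKM under PBS and 0.507 ± 0.235 FPKM under cisplatin. With a filter of 0.1 FPKM the cisplatin effect on Hoxb7 in WT was 0.79 ± 0.18 (limma adjusted p = 0.298) and was not called. With that filter Hoxb7 differed between BdP and WT by 0.49 ± 0.18 under PBS (limma adjusted p = 0.217). Under cisplatin the difference was -0.44 ± 0.18 (limma adjusted p = 0.365). The interaction of Hoxb7 was -0.93 ± 0.25 (limma adjusted p = 0.877), larger in size than that of any Hox gene past the main filter, and none of these was called. Hoxa2, Hoxb5, Hoxa9, Hoxa4, Hoxb4, Hoxb3 and Hoxb13 averaged 0.401, 0.284, 0.229, 0.164, 0.163, 0.154 and 0.127 FPKM. The other 21 rows averaged at most 0.0626 FPKM (Hoxc9). Hoxa13, Hoxc5, Hoxd11 and one of the Hoxd4 rows had no read in any library. With the 16 libraries pooled as 1, 3 reads would have stood at 0.00198 FPKM for Hoxd11 and 0.00337 FPKM for Hoxa13. These limits cover counting error only. The plain means over libraries given for the other rows can be higher for as few reads. The 2 reads of Hoxc12, both in WT PBS 1, gave a mean of 0.0621 FPKM.

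The genes that work with or on the Hox clusters were taken as lists. The tested TALE cofactors Pbx2, Pbx3, Pbx4, Meis2, Meis3 and Pknox1, partners that let Hox proteins bind selected sites, were not called in any comparison. Pbx3 had the smallest p between BdP and WT over both treatments. It averaged 4.50 and 3.38 FPKM in WT and 4.98 and 5.33 FPKM in BdP under PBS and cisplatin (0.35 ± 0.13, limma adjusted p = 0.105). The 6 had a median log2 difference of -0.08 under PBS, -0.16 under cisplatin and -0.12 over both treatments, with 3, 2 and 1 of 6 positive. The median of all tested genes was 0.01 in each.

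Of 11 trithorax and H3K27 demethylase genes, all tested, 1 was called between BdP and WT, Ash2l, under cisplatin and over both treatments, where 1.07% and 5.86% of all tested genes were called. It encodes a core subunit of the H3K4 methyltransferase complexes and lies on chromosome 8. It measured 12.8 ± 0.792 FPKM in WT and 17.6 ± 1.34 FPKM in BdP under cisplatin (0.43 ± 0.08, adjusted p = 0.0244), and rose by 0.40 ± 0.06 over both treatments (adjusted p = 0.00168). Under PBS it was at 11.4 to 12.99 FPKM in the WT libraries and 14.5 to 17.4 FPKM in the BdP libraries (0.36 ± 0.08, adjusted p = 0.0562) and was not called. Its call under cisplatin was lost without any 1 of WT cisplatin 1, 3 and 4 and BdP cisplatin 1, 2 and 4, with folds of 0.39 to 0.45 and adjusted p up to 0.0991. It was also lost without the 3 mitochondria-rich libraries (0.36, adjusted p = 0.176) and with a replicate block (0.43, adjusted p = 0.0663), which kept the call over both treatments. Both calls were lost in TPM and after rescaling to nuclear genes, where the fold over both treatments was 0.94 ± 0.45 (adjusted p = 0.338) and 0.57 ± 0.21 (adjusted p = 0.175). Within 1000 kb of Ash2l, 13 of 16 other tested genes had a positive difference under PBS, 15 under cisplatin and 14 over both treatments, and 1, 1 and 3 of them were called. Over all tested genes 51.3%, 51.1% and 51.1% were positive, and 0.99%, 1.07% and 5.86% were called. Dpy30 and Kmt2a came next (-0.55 ± 0.16 and 0.43 ± 0.12 over both treatments, adjusted p = 0.0515 and 0.0522). The 11 genes had a median log2 difference of 0.21 over both treatments and 9 were positive, where the median of all tested genes was 0.01 and 51.1% were positive.

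None of 19 Polycomb genes, all tested, was called in any comparison, with a median of -0.03 between BdP and WT over both treatments and 8 of 19 positive. The smallest p values were those of Phf19 (-0.33 ± 0.11, adjusted p = 0.0801) and Phc1 (-0.29 ± 0.10, adjusted p = 0.0921), subunits of PRC2 and PRC1. None of 7 tested genes of the retinoic acid and caudal list (median 0.03) was called either, the retinoic acid receptor gene Rarg coming nearest (-0.37 ± 0.11, adjusted p = 0.0636), nor any of 11 tested genes that flank the clusters (median -0.04, 4 of 11 positive). Of 19 noncoding Hox transcripts 17 were in the table and 2 were tested. Hotairm1, an antisense RNA of the HoxA cluster, averaged 1.91 FPKM with a difference of -0.05 ± 0.21, and Hoxa11os averaged 0.927 FPKM with one of -0.17 ± 0.14 between BdP and WT over both treatments, neither called. Hotair and Hottip, long noncoding RNAs of the HoxC and HoxA clusters, had no read in any library. Of 16 other positional homeobox and T-box genes, Tbx2 (35.4 FPKM), Tbx4 (9.40 FPKM) and Shox2 (1.53 FPKM) were tested and not called, Tbx2 with -0.32 ± 0.09 over both treatments (adjusted p = 0.0526). The other 13, among them the limb genes Pitx1, Tbx5, Prrx1 and Msx1, each averaged at most 0.0533 FPKM.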

How the data were processed

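Bulk RNA-seq of 16 tumour libraries (4 groups of 4) was used. The authors deposited 1 table of FPKM for 54532 genes. Per the submitters' processing notes, CASAVA, HISAT2 2.0.5 and featureCounts 1.5.0-p3 were used on GRCm38 (mm10). FPKM multiplied by gene length gave whole reads for 100% of values within 0.1 read, so reads per gene were recovered. The deposited FPKM were already scaled by median-of-ratios size factors and were not normalised again.

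The 12319 genes that reached 1 FPKM in 4 or more libraries were fitted as log2(FPKM + 1), pseudocount 1, in limma 3.58.1 (R 4.3.3). The fit held 4 group means over all 16 libraries, empirical Bayes with a mean-variance trend, and 7 contrasts. A gene was called where its p, adjusted by Benjamini-Hochberg across the 12319 genes, was under 0.05. Exact two-sided permutation tests used FPKM. The procedure was tested on simulated data. Alternatives were another pseudocount and filter, TPM, rescaling to nuclear genes, limma-voom on recovered reads, array weights, other variance models, a replicate block and leaving out libraries. Depth is given as recovered reads.

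Hox genes with a group mean of at least 1 FPKM, those called, and the 3 with the smallest p in each contrast are named. The members and gene lists were chosen with earlier results of these data known. Some genes, 1 Hox row among them, are not reported here and are left out of the sums and counts over Hox genes and lists. Exonic overlaps are from GENCODE M21, promoters from RefSeq (GRCm38.p6).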

Additional observations from a re-analysis of the deposited data

Results flagged for a closer look

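In a group of 4, a library was marked where its gap to the nearest other library took an unusually large part of the range of the group (Dixon's test at 95%). Of the 40 groups formed by 10 tested Hox genes in 4 groups of libraries, 1 was marked, and chance marks about 1 in 20 groups. Hoxd13 in WT PBS 1 was at 9.69 FPKM, while the other 3 WT PBS libraries were at 3.61 to 4.54 FPKM. This library had 76.9% mitochondrial reads, and the value rests on 47 reads.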

How the results depend on the processing

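The count of called Hox genes between BdP and WT was 1 under PBS, 1 under cisplatin and 1 over both treatments. Under PBS it was 0 in TPM, 0 after rescaling without mitochondrial genes, 0 with only the groups compared and 0 without the 3 mitochondria-rich libraries. It ranged from 0 to 1 when single libraries were left out. Under cisplatin it was 0 in TPM, 0 without the 3 mitochondria-rich libraries and 2 with array weights, which added Hoxa5 (adjusted p = 0.0466). Over both treatments it ranged from 1 to 2 when single libraries were left out, with Hoxa5 added without WT PBS 3 (-0.66, adjusted p = 0.0268). The cause was not tested. The Hoxd13 call over both treatments was kept in all 26 alternatives, from -2.46 to -1.52. In TPM, Hoxb6 and Hoxb8 turned to 0.16 and 0.44 under PBS (Hoxb8 also to 0.10 after rescaling and 0.15 with array weights), and Hoxb6 to 0.0118 for cisplatin over both genotypes, where TPM moved the median of all genes by 0.76 and 0.35. Same-numbered libraries did not deviate together (24 pairs, median r 0.0205, 9 over 0.1), and with a replicate block the counts of called Hox genes were 1, 1 and 1, with Hoxd13 at adjusted p = 0.0417, 0.0177 and 0.0011, and 81, 80 and 499 genes called in all against 122, 132 and 722. The same 3 counts over all genes were 6, 21 and 435 in TPM, 5, 39 and 84 after rescaling, 56, 106 and 449 with no filter, 123, 231 and 854 by limma-voom, 176, 943 and 1490 with array weights, and 50, 55 and 517 without the 3 mitochondria-rich libraries, with 3 and 251 when only the groups compared were fitted. Leaving out single libraries gave 25 to 356, 50 to 310 and 370 to 1619. The filter of 0.1 FPKM let 19 Hox rows pass and no filter 35. The 47 Hoxd13 reads of WT PBS 1 limit the precision there.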

Other observations

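WT PBS 1 also held the highest values of several Hox genes that were near 0 elsewhere. Hoxa9 was at 1.47 FPKM there (16 reads) and at most 0.305 FPKM in the other 15 libraries. Hoxc9 was at 0.843 FPKM from 4 reads and Hoxc12 at 0.993 FPKM from 2 reads, and Hoxc12 had no read in any other library.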
